A study of Mus musculus with 6 samples.

Results

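Erythroid cells of the mouse fetal liver at embryonic day 13.5 (E13.5) were compared with erythroid cells of the bone marrow of 89-week-old mice. Both tissues came from wild-type animals without treatment. Each was represented by 1 section of 5 µm, imaged in the same Xenium run on a panel of 5050 genes, in which gene-specific probes decode single RNA molecules in place and each molecule is assigned to a segmented cell. The embryo liver was fixed in formalin before paraffin embedding. The leg bones were fixed in paraformaldehyde, set in gelatin and frozen, and marrow was lifted out of 100 µm slices before it was embedded, so tissue, age, animal and preparation cannot be told apart. A cell was called erythroid when Slc4a1, the anion exchanger of the red cell membrane, and Klf1, a master transcription factor of the lineage, together gave at least 3 counts and the macrophage genes C1qa, C1qb and C1qc gave none. The other 3 genes of the original 5-gene gate were not on the panel. The members were thus chosen by their measured Slc4a1, Klf1 and C1q counts. This gate selected 16147 of 149095 cells, of 521938 in the 6 sections of the series. Sections of the E14.5 liver and of the marrow at postnatal day 8, also from wild-type mice, are set beside this pair further below.

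The E13.5 liver held 2183 erythroid cells among 5285, or 41.3% (95% exact binomial interval 40.0% to 42.6%). The 89-week marrow held 13964 among 143810, or 9.71% (9.56% to 9.86%). The median cell had 190 gene counts in the liver and 60 in the marrow. Among the 4866 liver and 82519 marrow cells with at least 50 counts, the shares were 43.7% and 15.0%, and with each of these cells thinned to 50 counts they were 13.5% and 7.94%. Shares of cells with a gene are given below at the same 50 counts, in the 2128 liver and 12392 marrow erythroid cells deep enough for it. Erythroid cells carried a median of 203 counts in the liver and 121 in the marrow, and 597860 and 2145967 gene counts in all. No cell barcode was shared between the sections, and doublets were not called. With 1 section per group there was no replicate. No test was made between the groups, and intervals cover counting error only. The comparison cells of each section had no count of either gate gene or of C1q. They numbered 1156 in the liver and 92987 in the marrow and are called non-erythroid below, although both sets still held erythroid RNA, with Car2, the red cell carbonic anhydrase, at 4832 and 4898 CPM (counts scaled to a total of 1000000 gene counts). Cells that met the gate but had C1q counts, 423 in the liver and 3964 in the marrow, were left out.

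Red cell production moves from the fetal liver to the marrow around birth. In both places progenitors divide several times under erythropoietin, fill with haemoglobin and stop dividing before they lose the nucleus. Heme synthesis, iron uptake and the spectrin skeleton are shared by both sites. Mature red cells live on glycolysis, since they lose their mitochondria, and the mouse is known for carrying the glucose transporter GLUT1, encoded by Slc2a1, on fetal and newborn red cells and losing it afterwards.

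Slc2a1, the liver and red cell pyruvate kinase gene Pklr and the ubiquitin-like interferon target Isg15 are each described at length below. Each holds a motif match near the start, so their promoters are shown, as the 150 bases upstream of the start in RefSeq on GRCm38.p6. Capitals mark CCNCNCCC in Slc2a1 (chr4:119108595-119108744, plus strand), a motif of KLF factors with 2 overlapping matches. In Pklr they mark AGATAA, a motif of GATA factors (chr3:89135992-89136141, plus strand, the upstream one of 2 starts). In Isg15 they mark an interferon response motif, 2 copies of GAAA with 2 bases between them, in 3 overlapping matches (chr4:156200819-156200968, minus strand).
Slc2a1: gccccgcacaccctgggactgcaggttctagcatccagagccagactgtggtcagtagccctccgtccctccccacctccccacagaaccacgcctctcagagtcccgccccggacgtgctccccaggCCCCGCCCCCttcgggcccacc
Pklr: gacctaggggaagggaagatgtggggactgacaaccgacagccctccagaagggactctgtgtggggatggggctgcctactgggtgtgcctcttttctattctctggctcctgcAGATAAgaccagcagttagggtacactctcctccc
Isg15: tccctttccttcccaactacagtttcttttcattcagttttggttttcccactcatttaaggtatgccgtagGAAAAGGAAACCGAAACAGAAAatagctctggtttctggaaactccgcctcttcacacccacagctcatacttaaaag
The matches start 22 and 20 bases before the start in Slc2a1, 35 in Pklr and 78 to 66 in Isg15. Over 250 upstream bases and both strands, the KLF motif was in 45.9% of 32851 promoters in the table and in 66.7% of the 2874 promoters of the genes compared here. The GATA motif was in 9.99% and 5.05%, the interferon motif in 2.98% and 2.64%, and TTTNNCGC, a motif of E2F factors, in 4.28% and 6.82%. A match is a description of these letters only, and the interferon motif was added after the values were seen.

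The gate genes themselves describe the selection. Slc4a1 stood at 22719 CPM in the liver and 40160 in the marrow, and Klf1 at 3163 and 4695. Cells just inside the threshold, with 3 gate counts, numbered 400 in the liver and 3207 in the marrow, and those just outside, with 2, numbered 540 and 5111. Cells just outside still held much erythroid RNA, at lower levels: Alas2 stood at 5863 CPM just inside and 4851 just outside in the liver, and at 16136 and 12204 in the marrow. Car2 stood at 19807 and 15291 in the liver and at 38917 and 31817 in the marrow. All 11 panel genes of an erythroid list that the gate does not use were higher in erythroid than in non-erythroid cells of the same section, by 3.95- to 9.48-fold in the liver and 2.69- to 19.4-fold in the marrow. The erythroid cell outline measured a median of 44.3 µm² in the liver (quartiles 32.5 to 60.4) and 36.1 µm² in the marrow (27.9 to 46.3), and the nucleus 24.5 and 21.9 µm².

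Genes were compared in CPM over all erythroid cells of a section, leaving out the gate genes and C1q. Of 2782 genes with a mean of at least 20 CPM over both sections, 744 were at least 2-fold higher in the liver, a background of 26.7%, and 385 at least 2-fold higher in the marrow, a background of 13.8%. The median gene stood 0.29 higher in the liver on the log2 scale, and ratios below are read against that shift. Centred on the median, the counts were 584 (21%) and 498 (17.9%), so that the liver's part of the calls went from 65.9% to 54.0%. Some erythroid cells, 117 in the liver and 53 in the marrow, had 5 nearest cells that were all erythroid. In these, 267 genes were 2-fold higher in the liver and 390 in the marrow. The liver's part was 40.6% and the median -0.32. These cells held 34541 and 9249 counts, and a gene at 0 in a section was set to 3 counts or had no ratio. Of the 744 genes called for the liver, 259 had a ratio there and 226 of these stayed on that side. For the 385 of the marrow these numbers were 217 and 209. Whether the balance itself turned cannot be told from so few counts.

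Most of the genes past 2-fold stood lower in erythroid than in non-erythroid cells of the section where they were higher. The non-erythroid cells were taken from the whole section. How many of all 2782 genes stood lower was not counted, so the numbers of lower genes below have no background. Of all 2782 genes, 376 (13.5%) were at least 1.5-fold higher in erythroid than in non-erythroid cells of the liver and 446 (16%) in the marrow. Only 47 of the 744 genes higher in the liver were enriched in this way in the liver, a smaller share than of all genes, and 597 were lower in erythroid cells. Of the 385 genes higher in the marrow, 98 were enriched in the marrow, a larger share than of all genes, and 272 were lower in erythroid cells. The erythroid level of a section enters both the enrichment and the ratio between sections, so the shares enriched are not independent of the calls. The genes with the 3 largest ratios each way were lower in erythroid than in non-erythroid cells. Apoa1, an apolipoprotein of the hepatocyte, had 2775 counts in the liver and 3 in the marrow, a ratio of 3320 (interval 1135 to 16110). H19, an imprinted fetal RNA, had 10932 and 13 counts, and Afp, the fetal albumin of hepatoblasts, 8622 and 16. All 3 stood at 0.666 to 0.741 of their level in non-erythroid liver cells. On the other side, the immunoglobulin light chain gene Igkc had 3 and 17077 counts, the granulocyte lectin Chil3 1 and 3082, and the invariant chain Cd74 4 and 10471, at 0.271 to 0.381 of their level in non-erythroid marrow cells.

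**Figure D1:**
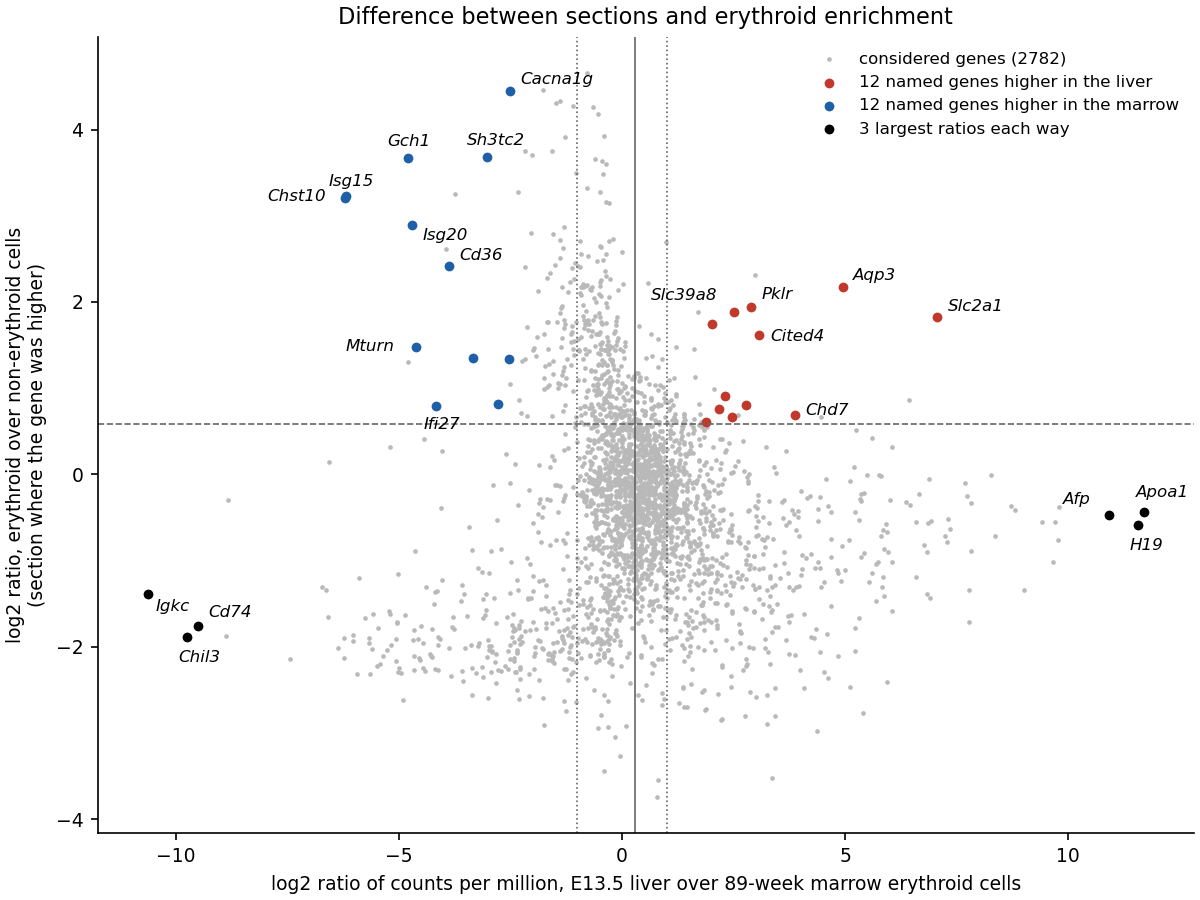
Each of the 2782 genes compared is placed by the log2 ratio of its CPM in liver over marrow erythroid cells (horizontal) and by its log2 ratio in erythroid over non-erythroid cells of the section where it was higher (vertical). The solid line is the median ratio of 0.29, the dotted lines mark 2-fold and the dashed line 1.5-fold enrichment. The 6 genes with the largest ratios (black) lie below the dashed line. The named genes in red and blue were chosen to lie above it.

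Whole marker lists of other cell types, whose RNA in an erythroid outline can come from a neighbour, were lower in erythroid than in non-erythroid cells too, other than T and NK cell genes in the liver (61.9 against 48.0 CPM). All 16 hepatoblast and hepatocyte genes had counts in liver erythroid cells and summed to 32817 CPM there, against 45220 in non-erythroid liver cells. In marrow erythroid cells 15 of the 16 had counts and the list summed to 358 CPM. The highest there were C3 at 227 CPM and Epcam at 82.0, and the next, Apoa2, stood at 9.79. In the marrow, the 18 neutrophil and granulocyte genes summed to 18433 CPM in erythroid and 76444 in non-erythroid cells, and the 15 B cell genes to 12019 and 43243. The liver erythroid cells held 1024 and 48.5 CPM of these lists, with 3 of the 18 and 7 of the 15 genes at 0 counts. Monocyte genes summed to 1815 CPM in liver and 7085 in marrow erythroid cells, megakaryocyte genes to 1331 and 2666, endothelial genes to 3001 and 622, stroma genes to 3757 and 3789, T and NK cell genes to 373 in the marrow, mast cell genes to 63.6 and 713, and macrophage genes other than C1q to 621 and 1655. The genes described next were therefore chosen to be at least 1.5-fold enriched over non-erythroid cells in the section where they were higher, 12 each way, by the size of their ratio.

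Slc2a1 led the genes higher in the liver. It gave 1227 counts in liver erythroid cells and 33 in marrow erythroid cells, which is 2052 against 15.4 CPM and a ratio of 133 (94.5 to 195). Each section was cut into 4 strips with equal numbers of erythroid cells, and the strips ranged from 1867 to 2182 CPM in the liver and from 11.6 to 23.8 in the marrow, without overlap. Non-erythroid cells differed in the same direction, at 580 and 56.4 CPM, a ratio of 10.3. At 50 counts per cell, 14.5% of liver and 0.0565% of marrow erythroid cells had a count, and without thinning 34.1% and 0.193%. In non-erythroid cells 11.2% had a count in the liver, at a median depth of 155 counts, and 0.381% in the marrow, at 46. Slc2a1 was thus 3.54-fold higher in erythroid than non-erythroid cells of the liver, and in the marrow stood at 0.272 of the non-erythroid level.

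Pklr was enriched in the erythroid cells of both sections but at different levels. It had 2215 counts in liver and 1071 in marrow erythroid cells, or 3705 and 499 CPM, a ratio of 7.42 (6.90 to 7.99). Its enrichment over non-erythroid cells was 3.83-fold in the liver and 3.66-fold in the marrow, and non-erythroid cells differed 7.10-fold. Its liver and red cell forms were not told apart in these counts. The transcriptional co-activator Cited4 stood at 1487 and 176 CPM, 8.46-fold higher in the liver (7.50 to 9.57), and the zinc and manganese importer Slc39a8 at 368 and 64.3, 5.72-fold higher (4.60 to 7.13). Both were enriched in the erythroid cells of each section, and they differed 4.81- and 4.95-fold in non-erythroid cells.

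The other 8 genes of this group were enriched in liver erythroid cells, as the choice required. In marrow erythroid cells they were below the non-erythroid level, at 0.141 to 0.849 of it. Aqp3, a water and glycerol channel, had 60 counts in the liver and 7 in the marrow, a ratio of 30.8 (14.05 to 79.8). The chromatin remodeller Chd7 had 57 and 14 counts, a ratio of 14.6 (8.04 to 28.4), and the ferric reductase-like gene Frrs1 158 and 83, a ratio of 6.83 (5.21 to 9.02). Plin2, which coats lipid droplets, stood at 664 and 147 CPM. Hmga1b (5.53-fold; its probes may share transcripts with the near-identical Hmga1), Arid3b (4.96-fold), Cltb (4.07-fold) and Polr1e (3.66-fold) complete the 12. Counts in non-erythroid liver cells were few for Aqp3 (6), Cltb (8), Arid3b (14) and Chd7 (16). Against all liver cells not called erythroid, Chd7 (1.39), Frrs1 (1.31), Plin2 (1.14), Hmga1b (1.20) and Arid3b (1.47) were below 1.5-fold enrichment. Aqp3, Cltb and Polr1e stayed above it.

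Isg15 led the genes higher in the marrow. It gave 20 counts in liver and 5328 in marrow erythroid cells, which is 33.5 against 2483 CPM and a ratio of 74.2 in favour of the marrow (48.0 to 122). Strips of the liver ranged from 7.21 to 50.4 CPM and those of the marrow from 2225 to 2800. It was 9.21-fold higher in erythroid than in non-erythroid marrow cells, and non-erythroid cells themselves differed 14.6-fold, at 18.5 and 269 CPM. At 50 counts per cell, 0.094% of liver and 11.6% of marrow erythroid cells had a count, and without thinning 0.870% and 21.8%, against 0.433% and 1.66% of non-erythroid cells.

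Isg20, an interferon-induced exonuclease, had 70 and 6511 counts, or 117 and 3034 CPM, 25.9-fold higher in the marrow (20.5 to 33.3), with non-erythroid cells 6.92-fold apart. Gch1, the first enzyme of tetrahydrobiopterin synthesis, had 17 and 1690 counts, 27.7-fold higher (17.2 to 47.7), with a 12.7-fold enrichment in marrow erythroid cells. The fatty acid translocase and thrombospondin receptor Cd36 had 72 and 3822 counts, 14.8-fold higher (11.7 to 18.9). In the marrow Cd36 was 5.34-fold enriched in erythroid cells, and in the liver it stood at 0.679 of the non-erythroid level.

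The remaining 8 were of lower level. The sulfotransferase gene Chst10 had 1 count in the liver and 260 in the marrow, a ratio of 72.4 with a counting interval of 12.9 to 2872. The Chst10 ratio was under 2-fold after thinning and in cells without counts of other markers. The liver stood at 0 counts in both and was set to 3, so these ratios are bounds. They cannot show whether the difference was smaller. With erythroid neighbours Chst10 was under 2-fold too, and this ratio is also a bound. Ifih1 and Cacna1g were under 2-fold there as well, on few counts. Mturn had 6 and 528 counts (24.5-fold, 11.2 to 67.1). The interferon-induced genes Ifi27 (17.9-fold), Ifih1, a sensor of viral RNA (10.2-fold), and Herc6, an E3 ligase for Isg15 in the mouse (5.80-fold), were also among them. Sh3tc2 was 8.10-fold higher, the developmental regulator Nfix 6.86-fold and the T-type calcium channel gene Cacna1g 5.68-fold. Nfix and Cacna1g were enriched in marrow erythroid cells by 1.76- and 21.9-fold but stood at 0.141 and 0.118 of the non-erythroid level in the liver.

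**Figure D2:**
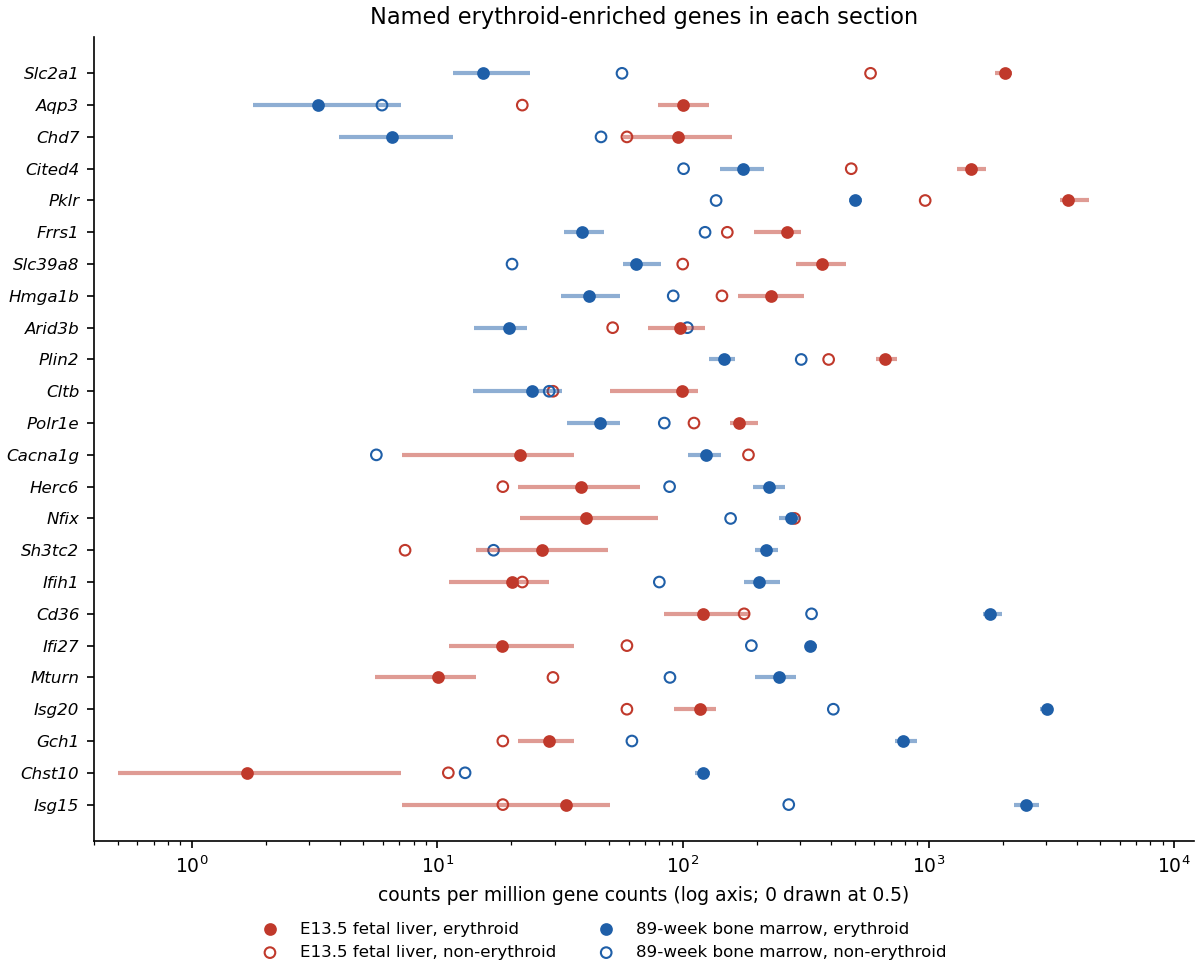
CPM (log axis) of the 24 named genes in erythroid cells (filled) and non-erythroid cells (open) of the E13.5 liver (red) and the 89-week marrow (blue); bars run from the lowest to the highest of 4 strips of each section with equal numbers of erythroid cells, which are parts of 1 section and not replicates, and a strip at 0 is drawn at 0.5. The genes were chosen for large ratios, so the distance between filled points is part of the choice; open points show how far non-erythroid cells differ too.

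Within a section, erythroid cells can be ordered by the share that Slc4a1 and Klf1 take of their counts, since Slc4a1 is known to rise as cells mature. Through the minimum of 3 counts this share also falls with depth. In 3 groups of nearly equal size, the lowest, middle and highest shares had medians of 1.43%, 3.19% and 6.16% in the liver at 373.5, 190 and 111 counts per cell. In the marrow the medians were 2.74%, 5.19% and 8.73% at 184, 117 and 70 counts. Alas2, the first enzyme of heme synthesis, increased with this share in both sections, from 4376 to 12647 and 26485 CPM in the liver and from 11224 to 25357 and 38749 in the marrow. Genes of other cells differed along it too. From the lowest to the highest group, Cd74 went from 5954 to 3417 CPM in the marrow and Afp from 15190 to 10506 in the liver. The granulocyte gene Ltf rose in the liver, from 18.2 to 203. The mitosis gene Cenpf rose from 370 to 944 in the liver and from 937 to 2143 in the marrow. Whether the share orders cells by maturation was not tested.

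The named genes split along this order. Slc2a1 increased in the liver from 895 to 2252 and 5583 CPM, while the marrow groups held 14.3, 8.85 and 28.5. Pklr was 3418, 4057 and 4060 CPM in the liver and decreased in the marrow from 829 to 240 and 95.05. The difference in Pklr was thus smallest in cells with the lowest gate share. Cited4 showed a similar decrease in the marrow, from 271 to 103 and 54.7 CPM. Isg15 increased in the marrow from 1317 to 2979 and 4584 CPM, Cd36 from 789 to 1921 and 4023, Isg20 from 2176 to 3505 and 4410, and Gch1 from 432 to 985 and 1354. The liver groups also went up at their lower levels, Isg15 from 18.2 to 102 CPM, Isg20 from 75.8 to 264 and Cd36 from 100 to 203. These values come from the same cells that the gate selected and describe them without a test.

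**Figure D3:**
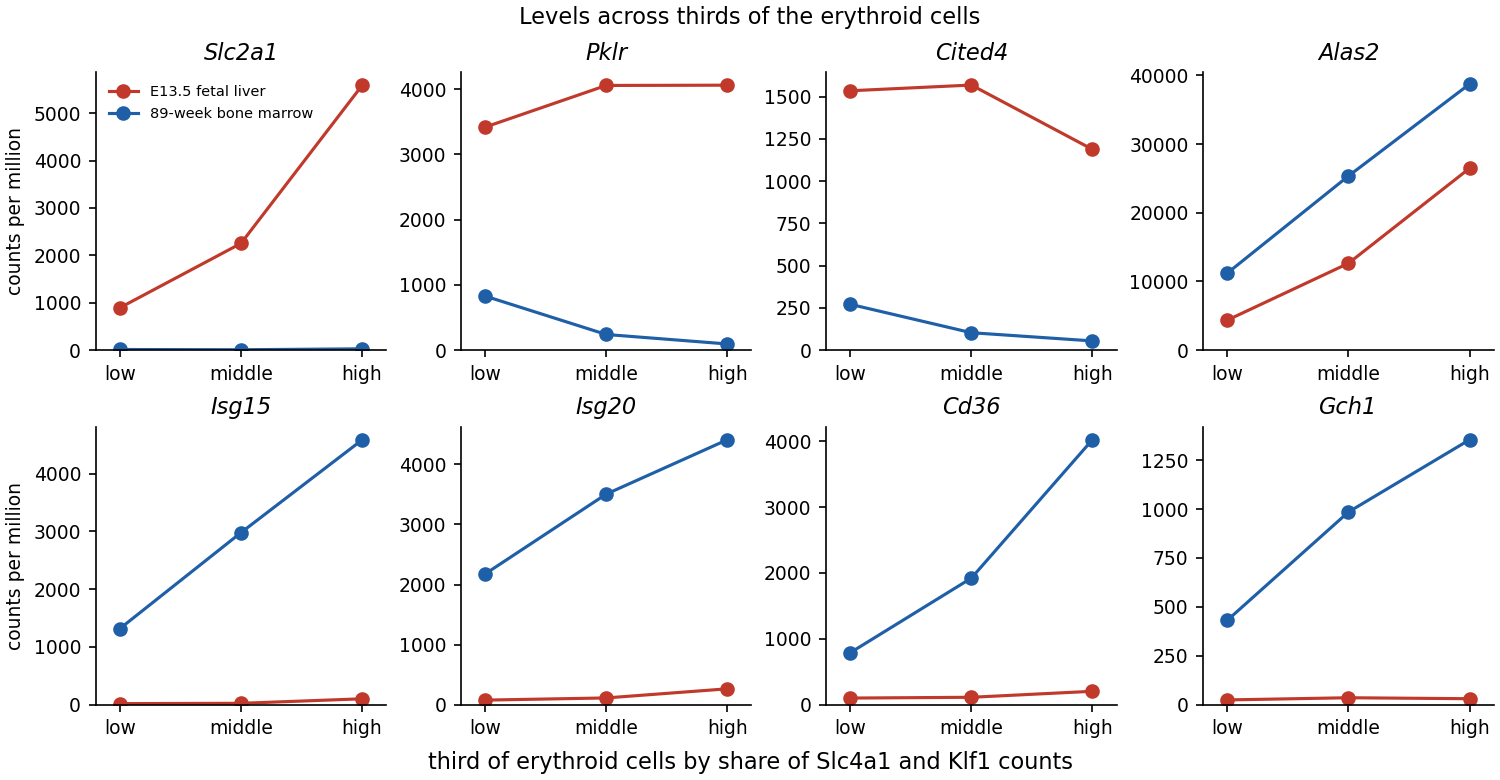
CPM (vertical, from 0) of 8 genes in 3 groups of the erythroid cells by the share of Slc4a1 and Klf1 counts (horizontal) in the E13.5 liver (red) and the 89-week marrow (blue), each point 1 sum over 726 to 729 liver or 4649 to 4658 marrow cells. Slc2a1 goes from 895 to 5583 in the liver and stays at or below 28.5 in the marrow, Isg15, Isg20 and Cd36 are higher in the highest than in the lowest group of both sections, at marrow levels far above those of the liver, and Alas2 increases in both.

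Gene lists place these genes in their pathways. Their counts past 2-fold are read against the 26.7% and 13.8% of all genes, and counts relative to the median gene, to be read against 21% and 17.9%, are added where they differ by more than 1.5 times. In the glycolysis and hypoxia list, 14 of 22 compared genes were at least 2-fold higher in the liver and 1 in the marrow, with a median log2 ratio of 1.58 against 0.29 for all genes, or 14 and 2 relative to the median gene. In non-erythroid cells of the same sections the list's median was 0.47. Besides Slc2a1 and Pklr these were mostly general enzymes. The phosphofructokinase gene Pfkl stood at 1415 and 217 CPM (6.52-fold), triosephosphate isomerase, Tpi1, at 1062 and 160 (6.63-fold), enolase, Eno1, at 997 and 138 (7.20-fold), and lactate dehydrogenase, Ldha, at 1780 and 317 (5.61-fold). Each of these 4 was between 0.999 and 1.30 of its level in non-erythroid liver cells and between 0.416 and 0.690 of that in the marrow. The monocarboxylate exporter Slc16a1 went the other way, at 905 and 2211 CPM, and hexokinase 1, Hk1, the red cell isozyme, stood at 667 and 988.

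In the interferon and antigen presentation list, 14 of 19 genes were at least 2-fold higher in the marrow and none in the liver, with a median log2 ratio of -1.81. The non-erythroid cells of both sections differed as much, with a median of -1.85. Of the 14 genes, 7 were at least 1.5-fold enriched in marrow erythroid cells: Isg15, Isg20, Ifi27, Ifih1, Irf9, Eif2ak2 and Usp18. Usp18, which removes Isg15 from proteins, had 2 counts in the liver and 199 in the marrow (27.7-fold, 7.57 to 230). The peptide transporter Tap1, with 2 and 428 counts, was instead lower in erythroid than in non-erythroid marrow cells, at 0.435 of their level. The interferon receptor genes Ifnar1, at 104 and 85.3 CPM, and Ifnar2, at 83.6 and 111, had ratios whose counting intervals included 1.

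Cell cycle inhibitors and p53 targets held 5 of 12 genes higher in the marrow and 1 in the liver (median -0.70). In non-erythroid cells the list's median was further to the marrow, at -1.20, and in erythroid cells it turned to 0.13 after thinning and 0.03 in cells without counts of other markers. All 5 were enriched in marrow erythroid cells, and all 5 were also higher in the marrow among non-erythroid cells, by 2.67- to 7.41-fold. The CDK inhibitors Cdkn1b (231 and 1151 CPM, 4.99-fold higher in the marrow), Cdkn2c (199 and 870, 4.37-fold) and Cdkn2d (661 and 1654, 2.50-fold), the retinoblastoma gene Rb1 (460 and 1353, 2.94-fold) and the stress gene Gadd45a (97.0 and 358, 3.69-fold) were these genes. The imprinted inhibitor Cdkn1c was 56.9-fold higher in the liver but at 0.405 of its level in non-erythroid liver cells. Of 28 G2-M and mitosis genes, 4 were higher in the marrow and none in the liver (median -0.46), a share close to the 13.8% of all genes, and 9 relative to the median gene. Among the 4 was Cenpf at 513 and 1445 CPM. Of 18 G1-S genes, 1 was higher on each side (median -0.11), and 1 in the liver and 2 in the marrow relative to the median gene.

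The core red cell programme was measured through genes of heme, iron, the membrane and transcription. Of 3 heme synthesis genes, Alas2 was 2.03-fold higher in the marrow (1.98 to 2.09), close to the threshold, and the oxidase Cpox 1.503-fold higher in the liver. Of 5 iron genes, 1 passed 2-fold: Hmox1, which degrades heme, was higher in the marrow at 139 and 733 CPM, at 1.04 and 1.09 of the level in non-erythroid cells, which hold no C1q, and at 0.192 and 0.636 of that in all cells not called erythroid. Relative to the median gene, 2 passed. The transferrin receptor Tfrc stood at 5003 and 7554. Of 15 membrane and skeleton genes, 2 were higher in the liver, Slc2a1 and Piezo1, and 4 in the marrow, with a median of -0.64, or 1 and 6 relative to the median gene. The last included Cd47, the signal that restrains macrophages, at 784 and 3710 CPM (4.73-fold, 4.31 to 5.202, with non-erythroid cells 4.93-fold apart), and the urea transporter Slc14a1 at 321 and 794. Of 22 erythroid transcription factors, 7 were higher in the marrow and none in the liver (median -0.66), or 11 and none relative to the median gene. Of the 7, 4 were enriched in marrow erythroid cells, and the list's median in non-erythroid cells was -0.35. Sox6, a repressor of embryonic globin, stood at 487 and 1648 CPM (3.39-fold, 3.003 to 3.83) and was 21.996-fold enriched in marrow erythroid cells. Lmo2, a bridge of the erythroid factor complex, stood at 858 and 2349, and Gata1 at 343 and 632. The embryonic alpha-like globin Hba-x, the single globin gene on the panel, had 41 and 15 counts, a ratio of 9.81 (5.32 to 19.1), without enrichment in liver erythroid cells. Counted per cell instead of in CPM, Car2 was at 7.78 molecules in liver and 7.55 in marrow erythroid cells and Alas2 at 2.84 and 3.24.

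Signalling genes were mostly within 2-fold. Of 24 Epo and Kit signaling genes, 4 were higher in the liver and 3 in the marrow (median 0.37), or 2 and 5 relative to the median gene. The erythropoietin receptor Epor stood at 1480 and 1462 CPM, a ratio of 1.01 (0.939 to 1.09), and the stem cell factor receptor Kit at 129 and 91.8. Cish, a target and brake of Epo signalling, was 3.33-fold higher in the liver at 39 and 42 counts. Terminal maturation genes split, with 2 of 12 higher in the liver, among them Cited4, and 3 in the marrow, Isg20, Cd36 and Tent5c (median -0.67), or 1 and 5 relative to the median gene. Of 18 adhesion genes 3 were higher in the liver and 6 in the marrow (median -0.54), 3 of the 6 enriched in marrow erythroid cells, and the median in non-erythroid cells was -0.98. Chromatin enzymes were mostly within 2-fold (2 and 3 of 30, median -0.09), as were apoptosis genes (2 and 1 of 20, or 0 and 4 relative to the median gene, median -0.15) and redox genes (0 and 1 of 8, or 0 and 2, median 0.10). Mitochondrial genes had 6 of 18 higher in the liver and 1 in the marrow (median 0.70), but 3 and 2 relative to the median gene. Stress response genes had 4 of 9 higher in the liver and none in the marrow (median 0.42). None of these 4 was enriched in liver erythroid cells, and the stress response median in non-erythroid cells was 0.77. Of 15 stem and progenitor genes 5 were higher in the liver and 3 in the marrow (median 0.41), and of 3 immediate early and heat shock genes 1 was higher in the liver (median 0.35).

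Fetal growth genes showed the largest list median, 6.27, with 14 of 16 higher in the liver, but none of them reached 1.5-fold enrichment in liver erythroid cells. The list's median in non-erythroid cells was 5.94. The RNA-binding gene Igf2bp1 had 233 counts in the liver and 1 in the marrow. The closest to an erythroid pattern was Lin28b, a regulator of fetal haematopoiesis, with 95 and 7 counts (48.7-fold, 22.7 to 124) and 1.34-fold enrichment in liver erythroid cells. The labels give no sex for either section. Xist, the RNA of the inactive X chromosome, had 1 count in liver erythroid cells and 1630 in marrow erythroid cells, with 3.69 and 937 CPM in non-erythroid cells, so sex and tissue cannot be told apart.

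**Figure D4:**
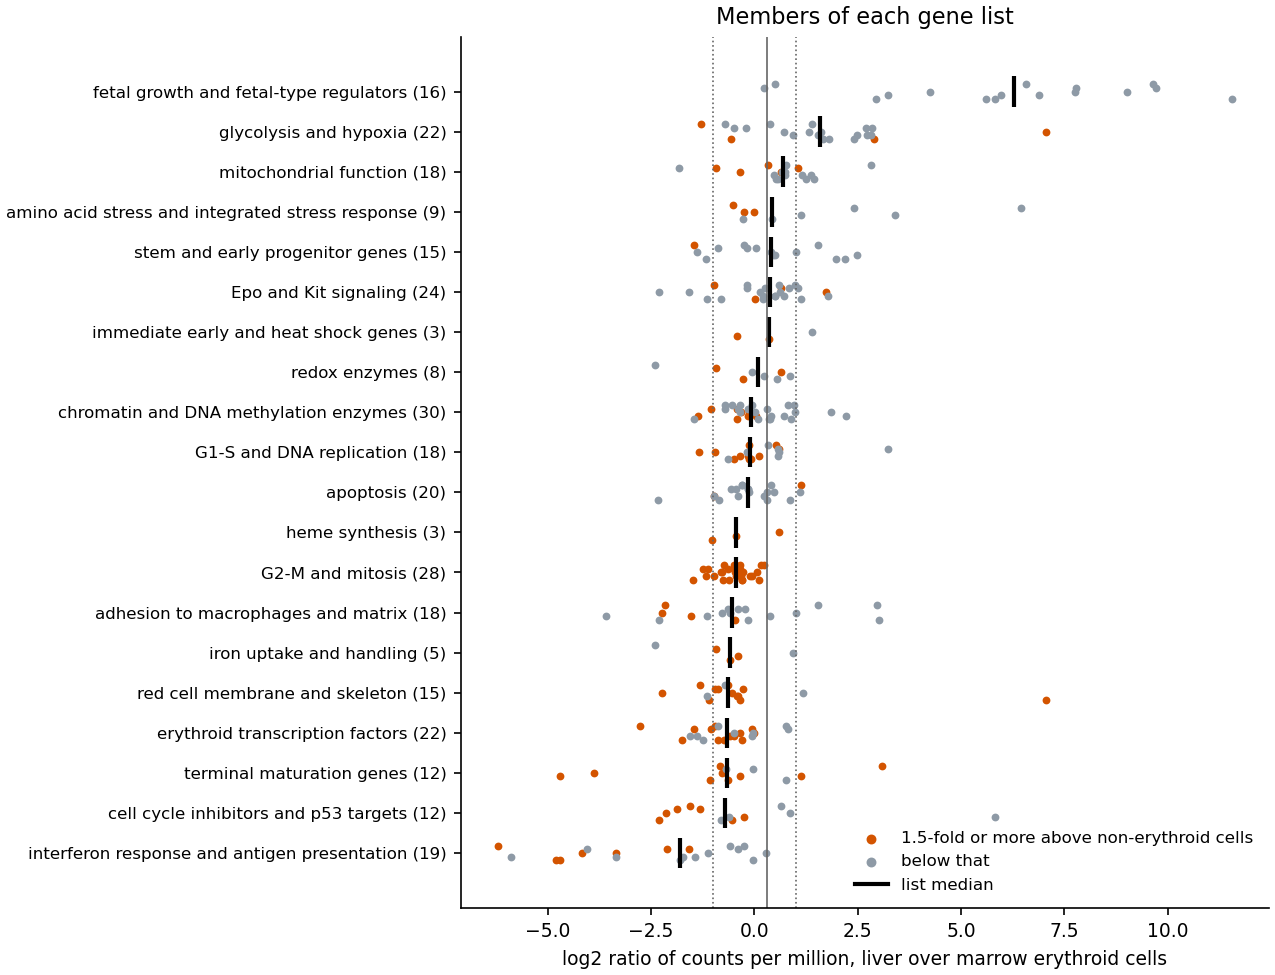
Each point is 1 gene of the list on the left (number compared in brackets; lists with at least 3 compared genes), placed by its log2 ratio of CPM in liver over marrow erythroid cells; orange marks genes at least 1.5-fold enriched over non-erythroid cells of the section where they were higher, and black bars are list medians. The solid line is the median of all genes at 0.29 and the dotted lines mark 2-fold; the interferon list lies farthest to the marrow side, and glycolysis and fetal growth genes to the liver side.

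A second pair of sections from wild-type mice, of the E14.5 liver and the P8 marrow (postnatal day 8) on a 477-gene panel, allowed the same gate. It selected 73791 and 16302 cells. Panel, run and cell outlines differed, so only ratios within each pair were set side by side. Of the 24 named genes, 3 were on both panels. Aqp3 was 14.1-fold higher in the E14.5 liver (12.04 to 16.6), Isg20 5.69-fold higher in the P8 marrow and Cd36 4.50-fold higher in the P8 marrow, each in the direction of the first pair. Of 98 genes that reached the minimum of 20 CPM in both pairs, among 233 on both panels, 45 were higher in the E14.5 liver and 53 in the P8 marrow, 21 and 35 of them by 2-fold. Among these, 27 of the 34 that were 2-fold higher in the E13.5 liver were also higher in the E14.5 liver, 18 of them by 2-fold. Of the 37 that were 2-fold higher in the 89-week marrow, 34 were higher in the P8 marrow and 30 by 2-fold. Only 1 of the 34 and 5 of the 37 were enriched in erythroid cells, and 1 and 3 of these kept their direction. Exceptions among erythroid genes were Cenpf, at 5816 and 4760 CPM in the E14.5 liver and P8 marrow, and Gfap.

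None of the motifs was held by all named genes of either side. Of 11 genes higher in the liver that were in the promoter table, 8 held the KLF motif and 3 the GATA motif, Pklr, Arid3b and Slc39a8. Of 9 genes higher in the marrow, 5 held the KLF motif, 1 the GATA motif, Isg20, and 1 the interferon motif, Isg15. Over the 2201 compared genes in the table the shares by gene were 73.0%, 6.13% and 3.32%. Of 16 genes of the interferon list in the table, 4 held the interferon motif: Isg15, Bst2, Gbp2 and Stat2.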

How the data were processed

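Xenium profiled 1 section per group. The authors deposited matrices of raw counts, decoded molecules of each gene in each cell outline, made per the file headers with Xenium Onboard Analysis 3.1.0.4 for the compared sections and 1.7.1.0 for the 477-gene panel (the study's methods name Space Ranger). Here, counts of gated cells were summed per section and scaled to a total of 1000000 gene counts (CPM), with Python 3.11.15, numpy 2.4.6, scipy 1.17.1 and pandas 2.3.3. Only 1.17% and 1.46% of outlines in the liver and marrow came from expanding the nucleus. Transcripts of neighbouring cells were not removed. Ratio intervals are exact conditional binomial intervals at 95%. The ratios were tested on simulated counts drawn with counting error only, which cannot show error between sections or from neighbouring cells. The floor of 3 counts was 5.02 CPM in the liver and 1.40 in the marrow.

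The rule for named genes took, at a mean of at least 50 CPM, the 12 largest ratios each way with 1.5-fold enrichment over non-erythroid cells, the 3 largest each way regardless, 2 members per list each way past 2-fold, the gate genes and the most abundant marker genes. Other list members were named after their values were seen. The members, the 22 gene lists and the 12 marker lists were chosen with earlier results of these data known. Areas, positions and outline types came from the deposited summary of each cell. Spleen sections, the boundary coordinates of outlines and single transcripts were not used here.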

Additional observations from a re-analysis of the deposited data

How the results depend on the processing

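With 1 section per group, no replicate could be left out, and 14 other settings were tried, 1 of them, the cells with the highest gate share, chosen after seeing the data. No paired analysis was possible because each group held 1 section. Of 1109 values of 97 named genes past 2-fold, 1096 kept their direction and 1024 stayed past 2-fold. The settings with a minimum of 50 or 5 CPM leave each gene's ratio as it is, and centring moves every log2 ratio by 0.29. None of these could turn a gene past 2-fold, and values without a ratio are not among the 1109. The 1096 therefore overstates how well directions held. Of 239 medians of 20 lists, 223 kept their direction. The medians past 2-fold (fetal growth, interferon and glycolysis) stayed so, other than glycolysis at 0.95 after thinning. Medians crossed 0 for stem genes (0.41 to -0.03 by Klf1 alone and -0.52 with erythroid neighbours), mitochondrial (0.70 to -0.05) and stress response genes (0.42 to -0.36) with erythroid neighbours, cell cycle inhibitors (-0.70 to 0.13 thinned and 0.03 without other markers), G1-S genes (-0.11, up to 0.54), apoptosis (-0.15, up to 0.34), chromatin (-0.09 to 0.23) and redox genes (0.10, down to -0.39). Alas2 ranged from -1.37 to -0.29 and was under 2-fold in 6 of 12 settings, with -0.95 at 5 gate counts. Slc2a1 stayed between 4.59 and 7.98 on the log2 scale, Pklr between 1.85 and 5.42, Isg15 between -7.01 and -4.86, Isg20 between -4.997 and -2.51, and Chst10 between -6.47 and -0.32. Chst10, Ifih1 and Cacna1g fell under 2-fold with erythroid neighbours, on 3 counts or fewer a section. Chst10 did so also after thinning (-0.42) and without other markers (-0.75). For Chst10 the liver was at 0 counts in each of these settings and set to 3, so its values there, among them the -0.32, are bounds. Against all cells not called erythroid, 7 of the 12 liver genes and 11 of the 12 marrow genes were named again. Chd7, Frrs1, Plin2, Hmga1b and Arid3b of the liver and Nfix of the marrow were not. The share of erythroid cells in liver and marrow was 27.1% and 5.87% with 5 gate counts, 37.0% and 8.83% by Slc4a1 alone, 3.80% and 0.656% by Klf1 alone, 43.7% and 15.0% among cells with 50 counts, and 13.5% and 7.94% after thinning. Against 744 and 385 genes, 231 were 2-fold higher in the marrow in cells without counts of other markers, 267 in the liver and 390 in the marrow in cells whose 5 nearest neighbours were erythroid (117 and 53 cells; 40.6% of calls in the liver against 65.9%, and a median gene at -0.32 against 0.29), 495 in the liver at a minimum of 50 CPM and 667 in the marrow at 5. Directions turned, in log2, for Eng (from 1.23 to -0.74 by Klf1 alone and -0.31 on the other panel), Cdc6 (-1.34 to 0.32, thinned), Bcl2 (-2.34 to 1.13), Gata2 (-1.38 to 0.39) and Ndc80 (-1.25 to 0.34) without other markers, Bcl2l2 (1.10 to -0.32) and Cxcl12 (-2.07 to 0.17) with erythroid neighbours, and Bcl2l2 (-0.71) in cells with the highest gate share. On the other panel they turned for Cd5l (-1.57 to 2.14), Cenpf (-1.49 to 0.29), Col1a2 (2.23 to -2.27) and Plvap (1.67 to -0.76). Without other markers, Bcl2 rested on 1 and 3 counts in liver and marrow, Gata2 on 1 and 5 and Ndc80 on 6 and 31. With erythroid neighbours, Bcl2l2 rested on 3 and 1 and Cxcl12 on 21 and 5. Cdc6 rested on 5 and 40 counts thinned, Eng on 21 and 95 by Klf1 alone and Bcl2l2 on 1 and 7 with the highest gate share. The cause was not tested for any. Genes under about 5 CPM in the liver rest on 3 counts or fewer. With erythroid neighbours the sections held 34541 and 9249 counts in all, and genes at 0 in a section were set to 3 counts or had no ratio. The gene counts, the median gene and the list medians of that setting carry this limit, so they cannot show a turn by themselves.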

Other observations

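Gfap, the intermediate filament gene known from astrocytes, was among the genes most enriched in erythroid cells of each section, by 9.13-fold in the E13.5 liver and 19.8-fold in the 89-week marrow. It stood at 202 and 567 CPM. On the smaller panel, with another run, it stood at 2388 CPM in E14.5 liver and 1943 in P8 marrow erythroid cells, again above non-erythroid cells of the same sections, by 8.97- and 26.8-fold. Whether the probes bind another transcript was not tested.

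Genes enriched at least 1.5-fold in erythroid cells of both sections numbered 254. Of these, 12 were 2-fold higher in the liver and 50 in the marrow, against 26.7% and 13.8% of all genes compared, and the median log2 ratio was -0.47 (quartiles -0.88 to 0.01), against 0.29 for all genes compared. These ratios are of CPM. Erythroid cells carried a median of 203 counts in the liver and 121 in the marrow, and ratios per cell are not given for this set.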
